A study of Homo sapiens with 12 samples.

Results

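Homologous recombination and DNA damage genes were followed in 2 human lymphoma lines after induction of a guide RNA against PRMT5, the main enzyme for symmetric dimethylation of arginine. The set held 41 genes out of 25369 rows in each deposited table, matched by gene symbol, and covered recombination, the Fanconi pathway, mismatch repair, the checkpoint kinases, and RUVBL1 and RUVBL2 with the acetyltransferase KAT5. Both lines come from diffuse large B cell lymphoma: TMD8 is of the activated B cell-like subtype and OCI-Ly7 of the germinal centre B cell-like subtype. Each carried a doxycycline-inducible single guide RNA against PRMT5 and received doxycycline at 20 ng/ml, and RNA was taken after 0, 3 and 6 days. Each line and day had 2 libraries, 12 in 6 groups. The groups of a line share the guide and differ in days of doxycycline, and no group with a control guide was analysed here. The treatment protocol in the labels gives other days than the sample titles, which give 0, 3 and 6 and were followed. The labels do not say whether the 2 libraries of a group came from separate cultures, so p-values measure the spread between these libraries, which may be technical.

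Homologous recombination repairs a double-strand break from an intact sister copy. Nucleases and sensors (MRE11A, RAD50, NBN, RBBP8, EXO1) cut the ends back, BRCA1 with BARD1 and BRCA2 with PALB2 prepare the single strand to pair with the copy, and XRCC2, XRCC3 and helicases such as BLM act on the intermediates. The Fanconi pathway clears crosslinks between strands: a core complex that includes FANCA, FANCG and FANCL attaches ubiquitin to the pair FANCD2 and FANCI. ATM and ATR are the kinases that sense breaks and stalled forks and signal through CHEK2 and CHEK1. RUVBL1 is an ATPase of the TIP60 complex, whose acetyltransferase is KAT5, and is a known PRMT5 substrate. Many of these genes are most expressed in S phase.

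Values are FPKM (fragment counts divided by transcript length and by library depth) as the authors computed them, and changes are differences of log2(FPKM + 1) tested with limma over all genes whose mean FPKM in the line reached 1. A change was called at an adjusted p under 0.05 (Benjamini and Hochberg). Summed FPKM lay between 397477 and 467844 per library. A depth was read from the smallest values, relative to the first day 0 library of the line. In TMD8 it was 1 and 1.18 on day 0 and 0.543 to 0.737 at days 3 and 6. In OCI-Ly7 it was 1 and 1.30 on day 0 and 0.768 to 0.908 later. Depth was thus lower in all later libraries, and in comparisons with day 0 it cannot be told apart from the day. The 45S pre-ribosomal RNA row took 6.97% and 10.6% of TMD8 fragments on day 0 and 23.5% to 27.3% at days 3 and 6. In OCI-Ly7 it took 13.9% and 14.9% on day 0 and 19.1% to 27.4% later. These shares are estimates from FPKM and a RefSeq length of 13357 bases. The length behind the deposited values is not given in the sources used here. FPKM is relative to the library. The median log2 change of all genes against day 0 was -0.27 on day 3 and -0.31 on day 6 in TMD8, and -0.12 and -0.13 in OCI-Ly7. The part of the 45S row in these shifts was not tested. Changes are therefore given for FPKM as deposited and, for most members, again after median-ratio scaling, which sets the typical gene to no change. In bulk RNA, fewer cells of a kind and less RNA per cell cannot be told apart. B cell markers stood at an FPKM of at least 1 in 5 of 6 cases in TMD8 and 6 of 6 in OCI-Ly7. Activated B cell-like markers reached 1 in 5 of 5 cases in TMD8, with sums between 659.8 and 993, and in 4 of 5 in OCI-Ly7, with sums between 402 and 544. Germinal centre markers did so in 4 of 5 in TMD8 (33.6 to 67.8 summed) and 3 of 5 in OCI-Ly7 (57.2 to 74.4), so each line held markers of the other subtype. Of the germinal centre markers OCI-Ly7 had LMO2 at 0.05 and SERPINA9 at 0, and TMD8 had MME at 0. T and NK cell markers summed to between 0 and 0.327 FPKM and myeloid markers to between 0.127 and 0.383. Stromal and epithelial markers summed to between 0.733 and 1.56 in TMD8 and between 9.39 and 10.5 in OCI-Ly7.

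PRMT5, the gene the guide targets, stood at 64.8 and 60.5 FPKM on day 0 in TMD8, 41.3 and 41.96 on day 3 and 49.6 and 54.7 on day 6. The OCI-Ly7 libraries stood at 37.9 and 46.9 on day 0, 29.3 and 32.1 on day 3 and 20.96 and 19.2 on day 6. A guide RNA cuts DNA and need not remove the transcript, so the RNA level checks the labels only in part. In OCI-Ly7 the day 6 libraries were below both day 0 libraries, and PRMT5 fell on both scales, with a log2 change of -1.04 ± 0.13 (SE, adjusted p = 0.0345, limma) as deposited and -0.89 (adjusted p = 0.0284) after scaling. The deposited call was lost without any day 0 or day 6 library (largest adjusted p = 0.23). In TMD8 it changed by -0.58 (adjusted p = 0.0212) on day 3 as deposited and -0.28 (adjusted p = 0.147) after scaling, and by -0.26 ± 0.07 (SE, adjusted p = 0.0262, limma) on day 6 as deposited and 0.10 (adjusted p = 0.201) after scaling, with the opposite sign. The TMD8 calls were lost without either day 0 library, and also without either day 3 library on day 3 and without day 6 replicate 1 on day 6.

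On day 0 the most abundant members per length were the TIP60-complex ATPases in both lines. RUVBL2 stood at 232 and 224 FPKM in TMD8 and RUVBL1 at 150.4 and 157 in OCI-Ly7. RUVBL1 and RUVBL2 did not differ beyond their spread in OCI-Ly7, where the latter stood at 151 and 148. In TMD8 RAD51C at 40.02 and 36.1 and FANCI at 35.5 and 31.7 came next, and FANCI overlapped TOPBP1 at 32.9 and 27.7. In OCI-Ly7 the mismatch repair gene MSH6 at 76.2 and 82.2 and H2AFX at 74.1 and 66.6 came next. BRCA2, a mediator of strand invasion, was among the lowest, at 3.37 and 2.86 in TMD8 and 1.104 and 1.301 in OCI-Ly7. MDC1, the adaptor that reads phosphorylated H2AX at breaks, was listed at 0 in 10 of the 12 libraries and reached 0.129 and 0.0745 in 1 TMD8 library each of days 3 and 6. It was not tested, which leaves 40 members tested in each line. A listed 0 cannot tell absent RNA from reads that were not assigned to the gene. The 2 tables were normalized separately, so levels of the lines are set side by side with no test.

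In TMD8 many of the repair genes fell as deposited, on days when a large share of all genes was also called lower. On day 3 the test called 21 of 40 members lower and 0 higher, which is 52.5% against 41.5% of all 10456 genes called lower and 1.5% called higher. On day 6 it called 22 lower and 0 higher, 55% against 51.7% of all genes lower and 3.89% higher. The median change of the members was -0.35 on day 3 and -0.30 on day 6, beside the shift of the median gene given above. After scaling none was called on day 3 (0.143% of all genes higher, 0.0765% lower), with 4 members at an unadjusted p under 0.05. On day 6 scaling left 4 members higher and 3 lower, where 15.4% of all genes were higher and 13.5% lower. Those higher were RAD51C, RAD51AP1, EXO1 and ATRIP, and those lower were FANCD2, FANCI and BLM. Rescaling each library to an equal sum of FPKM instead called 11 members lower and 0 higher on day 6, so the 4 higher calls rest on median-ratio scaling. The share of all genes called with equal sums is not given here.

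In OCI-Ly7 few members changed. On day 3 limma called 0 members either way on both scales, with 3 at an unadjusted p under 0.05 as deposited and 0 after scaling, against 0.0726% of all 11016 genes called higher and 0.0726% lower as deposited (0.0635% and 0.0545% after scaling). On day 6 it called RAD51C, RAD51AP1 and RUVBL1 lower as deposited, 3 of 40 where 9.39% of all genes were lower and 1.98% higher. After scaling RAD51C, RAD51AP1, RUVBL1 and NBN were lower and FANCA was higher, against 8.05% and 6.71% of all genes. Leaving out either day 0 library or either day 6 library left 0 members called as deposited, and leaving out any of the 6 libraries left 0 called after scaling.

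For counts with a library left out, here and elsewhere, the share of all genes called is not given. Leaving out libraries also moved the TMD8 day 6 count of 22. It came to 5 without day 0 replicate 1, 13 without day 0 replicate 2 and 11 without day 6 replicate 1. BARD1, BLM, FANCD2, FANCI and RUVBL2 kept their calls as deposited whichever of the 6 libraries was dropped. The count of 7 after scaling came to 2 and 1 without those day 0 libraries. The day 3 count of 21 came to 0 without any 1 of the day 0 or day 3 libraries. Between days 3 and 6 in TMD8, FANCD2 changed by -0.49 and RAD51AP1 by 0.32 as deposited (3.38% of all genes higher, 4.47% lower). After scaling FANCD2 was lower and 5 members, RAD51AP1, RAD51C, EXO1, FANCA and FANCG, were higher (6.56% higher, 5.1% lower). The 2 calls as deposited came to 0 without any 1 of the 6 libraries, and the 6 after scaling to between 0 and 3. In OCI-Ly7 it was 0 of 40 as deposited, with 5 at an unadjusted p under 0.05 (0.0999% of all genes higher, 0.118% lower), and NBN alone, lower, after scaling (4.23% higher, 4.52% lower), which was lost without any 1 library.

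**Figure D1:**
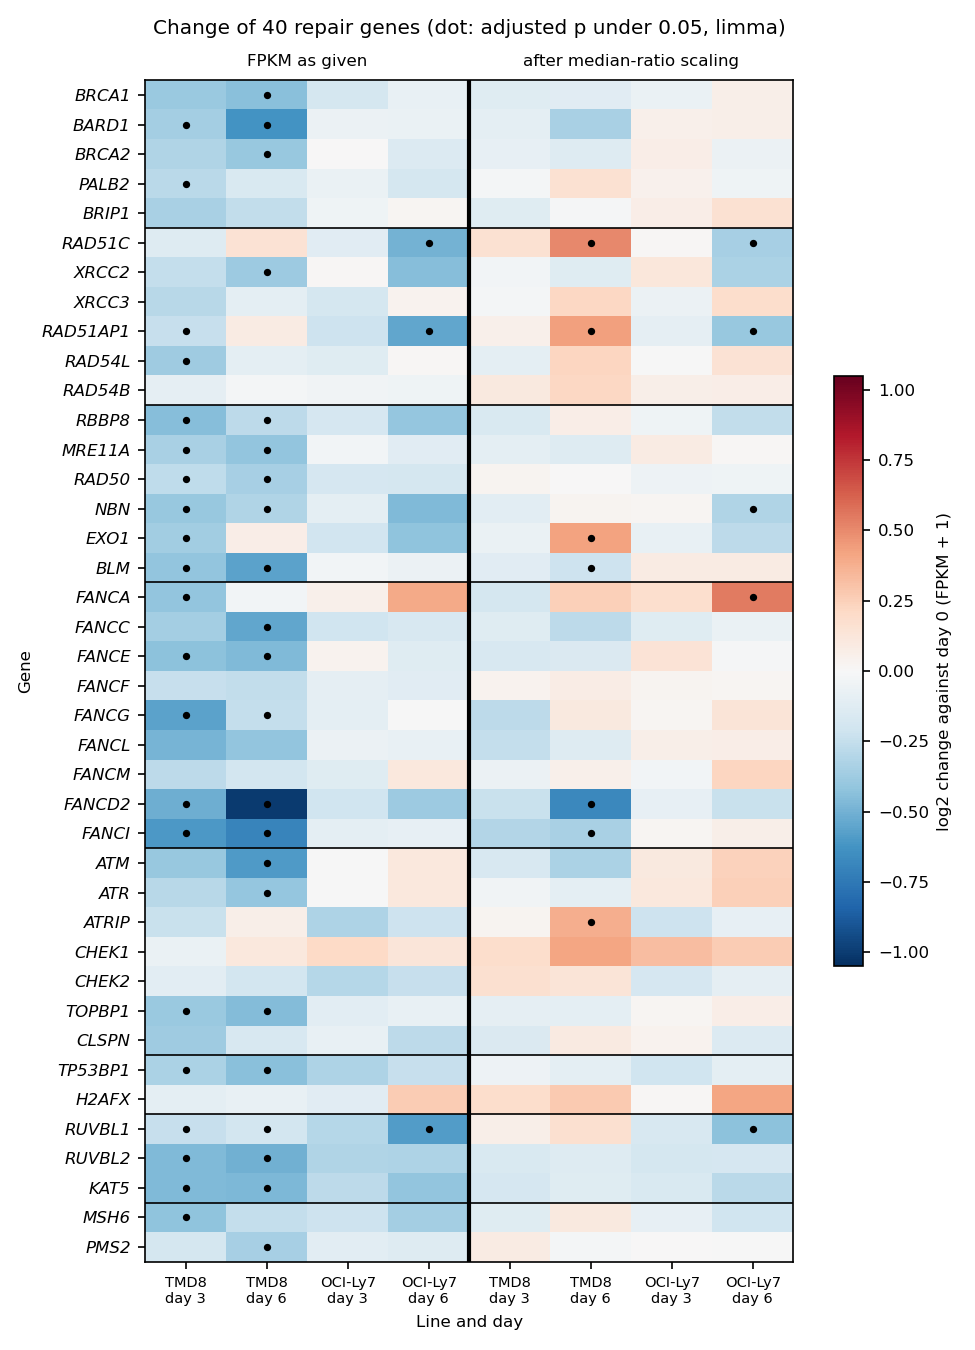
Change of 40 repair genes against day 0 in each line, as differences of log2(FPKM + 1) by colour (blue lower, red higher), with FPKM as deposited on the left and after median-ratio scaling on the right; dots mark an adjusted p under 0.05 and black lines separate roles. The TMD8 columns on the left are blue for most members, with 21 and 22 dots, and on the right 7 members carry a dot at TMD8 day 6 and 5 at OCI-Ly7 day 6.

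FANCD2, which with FANCI forms the pair that the Fanconi core complex marks with ubiquitin, had the largest fall of the 40 members in TMD8 on day 6. It stood at 13.99 and 13.1 FPKM on day 0, 9.65 and 8.73 on day 3 and 5.96 and 6.52 on day 6. The 3 days did not overlap. Its change on day 6 was -1.005 ± 0.09 (SE, adjusted p = 0.00167, limma) as deposited, 0.498 times the day 0 level on the log2(FPKM + 1) scale, and -0.68 (adjusted p = 0.00461) after scaling. This day 6 call against day 0 held in all 6 fits that left out a library, on both scales. FANCD2 also fell between days 3 and 6 with a change of -0.49 (adjusted p = 0.0323) as deposited and -0.44 (adjusted p = 0.0219) after scaling. As given above, the deposited call between days 3 and 6 was lost without any 1 library, and the scaled calls between these days became fewer. Levels in OCI-Ly7 stood at 22.7 and 22.7 on day 0, 20.5 and 18.5 on day 3 and 17.5 and 16.9 on day 6, also without overlap between days 0 and 6. That change, -0.38 ± 0.10 (SE, adjusted p = 0.0582, limma) as deposited and -0.24 (adjusted p = 0.0561) after scaling, did not pass the threshold. FANCD2 shares exonic bases with FANCD2OS on the other strand, which was listed at 0 at days 0 and 6 in both lines.

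FANCI stood at 35.5 and 31.7 FPKM on day 0 in TMD8, 22.6 and 20.9 on day 3 and 18.7 and 22.1 on day 6. Both later days were below day 0 and overlapped each other. The day 6 change was -0.69 ± 0.10 (SE, adjusted p = 0.00416, limma) as deposited and -0.34 (adjusted p = 0.0214) after scaling; the second was lost without either day 0 library or without day 6 replicate 1 (largest adjusted p = 0.13). In OCI-Ly7 FANCI stood at 48.002 and 53.7 on day 0, 50.1 and 44.2 on day 3 and 46.3 and 49.3 on day 6, with days that overlapped. FANCI shares exonic bases with POLG, the mitochondrial DNA polymerase, on the other strand. Whether counting used strand is not given in the sources used here, and the change of POLG in TMD8 was -0.07 as deposited and 0.28 (adjusted p = 0.0251) after scaling.

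Of the other 7 Fanconi genes, FANCC, FANCE and FANCG fell in TMD8 on day 6 as deposited. The FANCG call was lost without any 1 of the 6 libraries, and those of FANCC and FANCE without day 0 replicate 1. None of the 7 was called after scaling there, where their changes lay between -0.28 for FANCC and 0.25 for FANCA. FANCC, a core complex member, stood at 3.74 and 3.37 FPKM on day 0 and 1.86 and 2.41 on day 6, and the days did not overlap. FANCG, another core member, stood at 22.9 and 21.1 on day 0, 15.2 and 13.9 on day 3 and 17.9 and 18.8 on day 6. It was lowest on day 3 and rose between days 3 and 6 after scaling, by 0.37 (adjusted p = 0.0248).

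FANCA, a subunit of the core complex, stood at 15.03 and 13.7 FPKM on day 0 in OCI-Ly7, 16.8 and 13.3 on day 3 and 18.3 and 20.1 on day 6. Day 6 was above both other days. The change was 0.40 ± 0.14 (SE, adjusted p = 0.107, limma) as deposited and 0.54 (adjusted p = 0.0365) after scaling, so only the scaled value passed. That call was lost without any 1 library, with scaled changes from 0.45 to 0.63. In TMD8 FANCA stood at 3.73 and 3.42 on day 0, 2.28 and 2.59 on day 3 and 3.15 and 3.85 on day 6: it fell on day 3 as deposited, with a change of -0.42 (adjusted p = 0.036), and rose from day 3 to day 6 after scaling by 0.44 (adjusted p = 0.0409). FANCA shares exonic bases with ZNF276 on the other strand, whose means in OCI-Ly7 were 2.44 FPKM on day 0 and 2.65 on day 6.

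Sequence upstream of the start is shown for 4 members that moved in different directions. RAD51AP1 is listed by its fall in OCI-Ly7, and it was also called higher in TMD8 after scaling. RefSeq (GRCh38.p14) gave a single promoter for 25 of the 41 members, and only these members were searched. CCAAT, the box that NF-Y reads, was searched on both strands in the 250 bases before the start, and capitals mark it or its reverse complement where it lies in the stretch. Each stretch ends before the first annotated exon and is written 5′ to 3′ on the gene's strand. The stretches end 23 (FANCD2), 19 (BLM), 92 (RAD51AP1) and 10 (FANCA) bases before the RefSeq start, so they do not cover the same positions.
FANCD2, fell in TMD8, chr3:10026366-10026413, plus strand: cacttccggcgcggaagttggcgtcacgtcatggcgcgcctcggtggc
BLM, fell in TMD8, chr15:90717207-90717326, plus strand: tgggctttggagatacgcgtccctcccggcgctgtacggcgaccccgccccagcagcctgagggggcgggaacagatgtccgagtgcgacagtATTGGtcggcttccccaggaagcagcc
RAD51AP1, fell in OCI-Ly7, chr12:4538678-4538797, plus strand: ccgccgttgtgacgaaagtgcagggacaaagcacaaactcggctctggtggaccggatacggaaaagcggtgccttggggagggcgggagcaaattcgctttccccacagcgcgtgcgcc
FANCA, rose in OCI-Ly7 after scaling, chr16:89816658-89816777, minus strand: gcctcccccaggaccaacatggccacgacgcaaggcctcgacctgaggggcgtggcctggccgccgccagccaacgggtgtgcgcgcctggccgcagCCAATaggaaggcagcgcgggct

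CCAAT occurred before the start of 14 of the 25 members (56%) and of 32% of 35116 promoters of the same length. The 35116 were not limited to genes with a single promoter, so the selection of the 25 differs from theirs. BLM, RAD51AP1 and FANCA held it, the second outside the stretch shown, and FANCD2 and BARD1 did not. TTTGGCGC or TTTCGCGC, forms of the E2F site, occurred in 0 of the 25 and in 0.968% of all promoters. TTTGAA, a form of the CHR element of mitotic genes, occurred in 3 of 25 (12%) and in 13.3% of all. The NRF1 consensus occurred in 0 of 25 and in 1.03% of all. A match describes the letters and not binding. Members that fell and members that rose both occur among those with CCAAT.

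BLM, the helicase that unwinds recombination intermediates, stood at 25.1 and 22.5 FPKM on day 0 in TMD8, 17.7 and 17.4 on day 3 and 15.6 and 15.9 on day 6. The days did not overlap. The change on day 6 was -0.57 ± 0.08 (SE, adjusted p = 0.00336, limma) as deposited, and it held without any 1 library. After scaling it was -0.22 (adjusted p = 0.0432) and was lost without any 1 of the 6 libraries, with values from -0.26 to -0.18. In OCI-Ly7 BLM stood at 16.3 and 17.2 on day 0, 17.6 and 15.2 on day 3 and 15.8 and 16.4 on day 6, with overlapping days.

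BARD1, the partner of BRCA1, stood at 5.504 and 4.79 FPKM on day 0 in TMD8, 4.12 and 3.504 on day 3 and 3.05 and 2.87 on day 6, again without overlap. It fell on day 6 as deposited with a change of -0.63 ± 0.11 (SE, adjusted p = 0.00588, limma), in all 6 fits without 1 library. After scaling its change was -0.34 (adjusted p = 0.0501), just short of the threshold. In OCI-Ly7 it stood at 5.73 and 6.46 on day 0, 6.35 and 5.29 on day 3 and 6.09 and 5.45 on day 6, and the days overlapped.

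BRCA1 itself stood at 9.79 and 7.01 FPKM on day 0 in TMD8, 6.28 and 5.897 on day 3 and 5.78 and 5.95 on day 6. The day 0 libraries differed from each other by more than the later 4 did. The day 6 change of -0.44 ± 0.15 (SE, adjusted p = 0.0427, limma) as deposited passed in 1 of 6 fits without 1 library, was -0.22 without day 0 replicate 1, and was -0.12 (adjusted p = 0.489) after scaling. BRCA2 stood at 3.37 and 2.86 on day 0, 2.63 and 2.01 on day 3 and 2.01 and 2.24 on day 6 and changed by -0.39 ± 0.13 (SE, adjusted p = 0.0427, limma) as deposited, lost without any day 0 or day 6 library (largest adjusted p = 0.215). After scaling its change was -0.13 (adjusted p = 0.399), with a 95% interval of -0.41 to 0.14. PALB2, which joins BRCA1 to BRCA2, stood at 7.51 and 7.23 on day 0, 6.02 and 5.71 on day 3 and 6.16 and 6.81 on day 6; its day 6 change was -0.16 (adjusted p = 0.149) as deposited and 0.16 (adjusted p = 0.0989) after scaling. In OCI-Ly7 day 6 changes of these 3 genes and of BRIP1, the BRCA1-bound helicase, lay between -0.18 and 0.02 as deposited, and none passed. BRCA1 counts are uncertain because it has a pseudogene copy nearby.

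**Figure D2:**
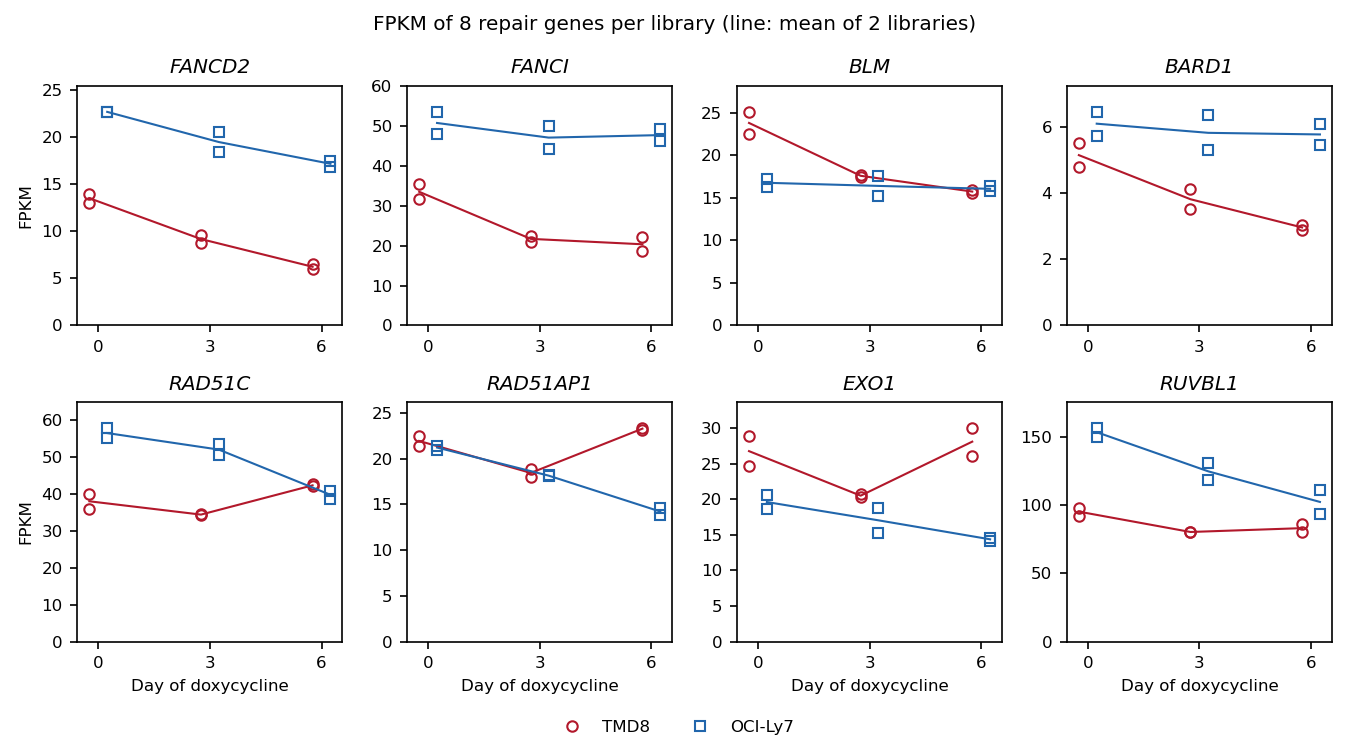
FPKM of 8 repair genes in each library by day of doxycycline in TMD8 (red circles) and OCI-Ly7 (blue squares), with lines through the mean of 2 libraries and axes from 0. FANCD2, FANCI, BLM and BARD1 are lower in TMD8 on day 6 than on day 0, and RAD51C, RAD51AP1 and EXO1 are lower in OCI-Ly7 on day 6 while TMD8 is above its day 0 mean.

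RAD51C, which acts in strand exchange with XRCC3, fell in OCI-Ly7 and was not lower in TMD8 on day 6, and the test of that difference is given with those of the other members. The OCI-Ly7 libraries stood at 57.98 and 55.1 FPKM on day 0, 53.4 and 50.7 on day 3 and 38.6 and 40.96 on day 6. The days did not overlap, and it fell on day 6 with a change of -0.50 ± 0.09 (SE, adjusted p = 0.0373, limma) as deposited and -0.35 (adjusted p = 0.0465) after scaling. As given above, RAD51C lost the deposited call without any day 0 or day 6 library, and the scaled call without any 1 library. Its changes in these fits ran from -0.54 to -0.455 as deposited and from -0.41 to -0.28 after scaling. In TMD8 it stood at 40.02 and 36.1 on day 0, 34.7 and 34.2 on day 3 and 42.6 and 42.1 on day 6. Both day 6 libraries were above all 4 others. The change from day 0 was 0.15 ± 0.07 (SE, adjusted p = 0.11, limma) as deposited, 0.23 (adjusted p = 0.0552) with equal sums and 0.51 (adjusted p = 0.00827) after median-ratio scaling. The scaled call was lost without either TMD8 day 0 library, at a largest adjusted p of 0.0535.

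RAD51AP1, which stimulates pairing of DNA strands, also fell in OCI-Ly7. Levels in OCI-Ly7 stood at 21.01 and 21.4 FPKM on day 0, 18.2 and 18.1 on day 3 and 14.6 and 13.9 on day 6, lower at each day without overlap. It fell on day 6 with a change of -0.55 ± 0.09 (SE, adjusted p = 0.0345, limma) as deposited and -0.40 (adjusted p = 0.0355) after scaling. RAD51AP1 too lost the deposited call without any day 0 or day 6 library, and the scaled call without any 1 library. Its changes in these fits ran from -0.58 to -0.51 as deposited and from -0.41 to -0.39 after scaling. In TMD8 it stood at 22.5 and 21.4 on day 0, 18.9 and 18.03 on day 3 and 23.2 and 23.4 on day 6. The middle day was lowest: RAD51AP1 fell on day 3 as deposited, with a change of -0.24 (adjusted p = 0.0369), and rose from day 3 to day 6 by 0.32 (adjusted p = 0.0437) as deposited and 0.38 (adjusted p = 0.0238) after scaling. Against day 0 the day 6 change was 0.08 (adjusted p = 0.321) as deposited, 0.16 (adjusted p = 0.119) with equal sums and 0.43 (adjusted p = 0.00915) after median-ratio scaling, lost without either day 0 library (largest adjusted p = 0.0649).

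EXO1, the nuclease that carries out long-range resection, stood at 28.8 and 24.7 FPKM on day 0 in TMD8, 20.3 and 20.7 on day 3 and 26.2 and 30.1 on day 6. It fell on day 3 as deposited, with a change of -0.36 (adjusted p = 0.0371), and days 0 and 6 overlapped. Against day 0 its day 6 change was 0.07 (adjusted p = 0.587) as deposited, 0.15 (adjusted p = 0.329) with equal sums and 0.42 (adjusted p = 0.0144) after median-ratio scaling, lost without either day 0 library (largest adjusted p = 0.0809). From day 3 it rose by 0.49 (adjusted p = 0.023) after scaling. In OCI-Ly7 it stood at 18.6 and 20.6 on day 0, 18.8 and 15.3 on day 3 and 14.2 and 14.6 on day 6. Day 6 was below both other days, yet the change of -0.42 ± 0.13 (SE, adjusted p = 0.0807, limma) as deposited and -0.28 (adjusted p = 0.0882) after scaling did not pass.

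XRCC2, XRCC3, RAD54L and RAD54B, which work on strand exchange, completed this group. XRCC2 fell in TMD8 on day 6 as deposited with a change of -0.38 (adjusted p = 0.0409), where libraries stood at 2.78 and 2.69 FPKM on day 0 and 1.59 and 2.18 on day 6, and was at -0.13 (adjusted p = 0.386) after scaling. Dropping 1 library at a time, the deposited call passed only without day 6 replicate 2, at -0.53, and the change was -0.23 without day 6 replicate 1. RAD54L fell in TMD8 on day 3 as deposited with a change of -0.37 (adjusted p = 0.0397), was at -0.10 after scaling, and was at -0.10 on day 6 as deposited. XRCC3 and RAD54B passed in no comparison. RAD54B was low, between 1.13 and 2.39 FPKM in the TMD8 libraries.

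Among the genes that sense and trim broken ends, MRE11A, RAD50, NBN and RBBP8 fell in TMD8 as deposited at both days, and none of the 4 after scaling. Without day 0 replicate 1 none of the 4 day 6 calls held. NBN, the subunit that recruits ATM, stood at 22.3 and 20.4 FPKM on day 0 in TMD8 and 16.5 and 17.3 on day 6, a change of -0.32 ± 0.07 (SE, adjusted p = 0.0143, limma) as deposited and 0.03 (adjusted p = 0.726) after scaling. In OCI-Ly7 NBN stood at 19.5 and 20.4 on day 0, 19.9 and 17.04 on day 3 and 14.5 and 13.9 on day 6. Day 6 was below both other days. It changed by -0.46 ± 0.11 (SE, adjusted p = 0.0516, limma) as deposited and -0.32 (adjusted p = 0.0397) after scaling, and by -0.34 (adjusted p = 0.0451) from day 3 after scaling. As given above, NBN lost both scaled calls without any 1 library. RBBP8, the cofactor that starts resection, stood at 57.3 and 56.9 in OCI-Ly7 on day 0 and 44.8 and 40.8 on day 6, and its change of -0.41 (adjusted p = 0.0609) as deposited and -0.26 (adjusted p = 0.0509) after scaling did not pass. The OCI-Ly7 changes of MRE11A and RAD50 were -0.12 and -0.18 as deposited and 0.02 and -0.04 after scaling, and none passed.

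ATM, the kinase that answers double-strand breaks, stood at 3.58 and 3.301 FPKM on day 0 in TMD8, 2.29 and 2.46 on day 3 and 1.57 and 2.38 on day 6. Both later days were below day 0. It fell on day 6 with a change of -0.59 ± 0.15 (SE, adjusted p = 0.0168, limma) as deposited, lost without either day 0 library (largest adjusted p = 0.0935), and was at -0.33 (adjusted p = 0.104) after scaling. The OCI-Ly7 libraries stood at 4.79 and 5.14 on day 0, 5.29 and 4.59 on day 3 and 4.95 and 5.99 on day 6, with overlap, and a change of 0.11 (adjusted p = 0.549) as deposited and 0.24 (adjusted p = 0.192) after scaling. ATR, the kinase of stalled forks, stood at 5.79 and 5.38 on day 0 and 3.48 and 4.51 on day 6 in TMD8, a change of -0.41 ± 0.12 (SE, adjusted p = 0.0308, limma) as deposited and -0.11 (adjusted p = 0.407) after scaling. Of the 6 fits without 1 library the deposited call passed only in that without day 6 replicate 2, at -0.55, and the change was -0.26 without day 6 replicate 1. In OCI-Ly7 the change of ATR was 0.11 (adjusted p = 0.519) as deposited and 0.25 (adjusted p = 0.212) after scaling.

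ATRIP, the partner that brings ATR to single-stranded DNA, stood at 7.21 and 5.99 FPKM on day 0 in TMD8, 5.19 and 5.74 on day 3 and 6.78 and 7.04 on day 6. Days 0 and 6 overlapped. Its change was 0.06 (adjusted p = 0.634) as deposited and 0.38 (adjusted p = 0.0308) after scaling, lost without any day 0 or day 6 library (largest adjusted p = 0.155). ATRIP overlaps TREX1 on the same strand, whose means in TMD8 were 10.4 FPKM on day 0 and 4.24 on day 6, so the split of reads between them is uncertain.

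CHEK1, the kinase downstream of ATR, stood at 6.85 and 4.25 FPKM on day 0 in TMD8 and 11.7 and 6.88 in OCI-Ly7. In each line the first day 0 library was above the second by more than the other 4 libraries spread. On day 6 it stood at 5.804 and 6.05 in TMD8 and at 10.2 and 9.64 in OCI-Ly7. These lay inside the day 0 ranges, and the changes were 0.11 (adjusted p = 0.626) and 0.12 (adjusted p = 0.729) as deposited and 0.42 (adjusted p = 0.107) and 0.26 (adjusted p = 0.441) after scaling. CHEK1 overlaps STT3A on the same strand. CHEK2, downstream of ATM, stood at 9.38 and 9.55 on day 0 and 8.36 and 7.97 on day 6 in TMD8. Levels in OCI-Ly7 stood at 19.4 and 19.6 on day 0 and 16.1 and 16.6 on day 6. As deposited its changes were -0.19 (adjusted p = 0.0675) in TMD8 and -0.24 (adjusted p = 0.295) in OCI-Ly7, and after scaling 0.13, with the opposite sign, and -0.09. None passed. CHEK2 has pseudogene copies and is uncertain. TOPBP1, the activator of ATR, fell in TMD8 as deposited with a change of -0.45 (adjusted p = 0.022) on day 6, lost without day 0 replicate 1 or day 6 replicate 1, and was at -0.10 (adjusted p = 0.399) after scaling, and CLSPN, the adaptor for CHEK1, passed in no comparison.

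TP53BP1, which protects broken ends from resection, stood at 16.1 and 15.04 FPKM on day 0 in TMD8, 12.1 and 12.1 on day 3 and 10.1 and 12.3 on day 6. Later days were lower, and the day 6 change was -0.44 ± 0.10 (SE, adjusted p = 0.0143, limma) as deposited, lost without day 0 replicate 1, and -0.10 (adjusted p = 0.314) after scaling. In OCI-Ly7 it stood at 11.9 and 13.2 on day 0 and 10.3 and 10.4 on day 6, a change of -0.24 (adjusted p = 0.14) as deposited and -0.10 (adjusted p = 0.404) after scaling. H2AFX, the histone variant phosphorylated at breaks, stood at 74.1 and 66.6 on day 0 in OCI-Ly7 and 94.9 and 75.1 on day 6. Both day 6 libraries were above day 0, but the change of 0.26 (adjusted p = 0.3) as deposited and 0.41 (adjusted p = 0.0766) after scaling did not pass.

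RUVBL1 stood at 150.4 and 157 FPKM on day 0 in OCI-Ly7, 131 and 119 on day 3 and 111 and 93.6 on day 6. The days did not overlap. It fell on day 6 with a change of -0.58 ± 0.12 (SE, adjusted p = 0.0412, limma) as deposited and -0.43 (adjusted p = 0.0365) after scaling. RUVBL1 lost the deposited call without any day 0 or day 6 library, and the scaled call without any 1 library. In TMD8 it stood at 98.4 and 92.4 on day 0, 80.7 and 80.2 on day 3 and 80.6 and 85.98 on day 6, a change of -0.19 ± 0.06 (SE, adjusted p = 0.0432, limma) as deposited and 0.17 (adjusted p = 0.0514), with the opposite sign, after scaling. That deposited call was lost when any library but day 6 replicate 2 was dropped. RUVBL1 shares exonic bases with EEFSEC and SEC61A1. Their changes were 0.11 and -0.31 in OCI-Ly7 as deposited, neither past the threshold. In TMD8 they were -0.70 (adjusted p = 0.00503) and -0.04 as deposited and -0.37 (adjusted p = 0.0556) and 0.32 (adjusted p = 0.0262) after scaling, so EEFSEC was called lower where RUVBL1 was.

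RUVBL2, the partner ATPase, stood at 232 and 224 FPKM on day 0 in TMD8, 159 and 171 on day 3 and 165 and 156 on day 6. It fell with a change of -0.50 ± 0.06 (SE, adjusted p = 0.003, limma) as deposited, without loss in any fit that left out a library, and changed by -0.14 (adjusted p = 0.264) after scaling. KAT5 stood at 15.5 and 14.3 on day 0, 10.1 and 11.03 on day 3 and 10.8 and 10.1 on day 6 in TMD8, below day 0 on both later days, and fell with a change of -0.47 ± 0.09 (SE, adjusted p = 0.00694, limma) as deposited, lost without day 0 replicate 1 (adjusted p = 0.0561); the scaled change was -0.13 (adjusted p = 0.316). In OCI-Ly7 RUVBL2 stood at 151 and 148 on day 0 and 127 and 111 on day 6. KAT5 stood there at 7.86 and 8.86 on day 0 and 6.78 and 5.33 on day 6. Day 6 was below day 0 for both as deposited, with changes of -0.33 (adjusted p = 0.139) and -0.41 (adjusted p = 0.11), and -0.18 (adjusted p = 0.177) and -0.28 (adjusted p = 0.148) after scaling.

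The 2 mismatch repair members gave 1 call each. MSH6, part of the sensor of mispaired bases, stood at 28.98 and 24.9 FPKM on day 0 in TMD8 and 20.5 and 19.2 on day 3, a change of -0.42 (adjusted p = 0.0307) as deposited and -0.13 (adjusted p = 0.528) after scaling. The OCI-Ly7 libraries stood at 76.2 and 82.2 on day 0 and 60.6 and 62.6 on day 6, not past the threshold at -0.36 (adjusted p = 0.0732) as deposited and -0.21 (adjusted p = 0.101) after scaling. PMS2, the nuclease subunit, fell in TMD8 on day 6 as deposited with a change of -0.34 (adjusted p = 0.0399), lost without either day 0 library or day 6 replicate 1, and was at -0.02 (adjusted p = 0.889) after scaling. PMS2 has pseudogene copies and is uncertain.

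The change on day 6 differed between the lines for 7 members as deposited, against 24.7% of 9688 genes. Of these members 5 were higher in OCI-Ly7 relative to TMD8 and 2 lower, 12.5% and 5% of those tested. Of all genes 18.4% were higher and 6.3% lower. The difference of the 2 changes, OCI-Ly7 minus TMD8, was 0.62 ± 0.12 (SE, adjusted p = 0.0095, limma) for FANCD2, 0.61 (adjusted p = 0.0238) for FANCI and 0.51 (adjusted p = 0.021) for BLM. It was 0.56 (adjusted p = 0.0381) for BARD1 and 0.71 (adjusted p = 0.0323) for ATM. On the other side stood RAD51C at -0.65 (adjusted p = 0.00586) and RAD51AP1 at -0.63 (adjusted p = 0.00483). After scaling 12 members differed, against 32.8% of all genes: these 7 in the same directions, and EXO1 at -0.66 (adjusted p = 0.00411), RUVBL1 at -0.56 (adjusted p = 0.00307), ATRIP at -0.43 (adjusted p = 0.0408), NBN at -0.30 (adjusted p = 0.0126) and RBBP8 at -0.29 (adjusted p = 0.021). Here the scaling ran over the libraries of both lines together, so these values need not equal differences of the scaled changes given by line. For RAD51C, RAD51AP1 and FANCD2 the call held whichever library was left out, on both scales. For ATM and BARD1 it was lost in 6 and 8 of 12 as deposited. For BLM and FANCI it was lost in some of these fits on each scale. After scaling it was lost in most fits for ATRIP, with values from -0.53 to -0.33, and in at least 1 for RBBP8 and NBN. The count of 7 came to 3 without TMD8 day 0 replicate 1, TMD8 day 6 replicate 1, OCI-Ly7 day 0 replicate 1 or OCI-Ly7 day 6 replicate 2, and the count of 12 to 7 without either TMD8 day 0 library and 6 without OCI-Ly7 day 0 replicate 1.

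**Figure D3:**
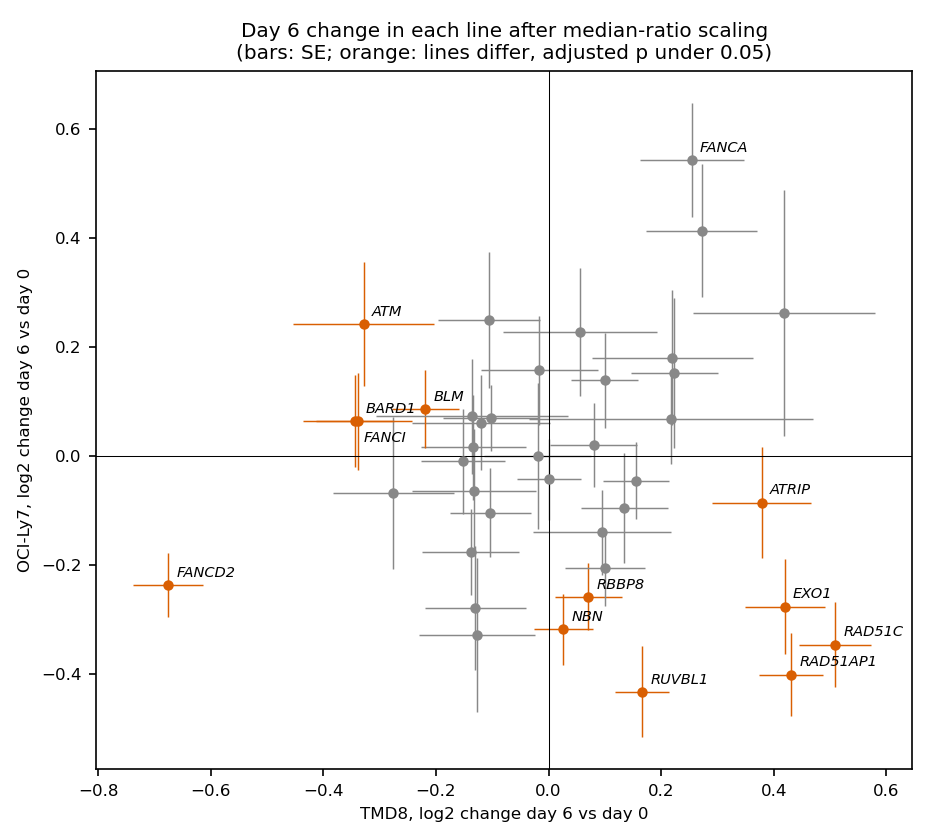
Day 6 change against day 0 in TMD8 (x axis) and OCI-Ly7 (y axis) for 40 repair genes after median-ratio scaling, as differences of log2(FPKM + 1) with SE bars; orange marks the 12 members whose changes differed between lines at an adjusted p under 0.05. RAD51C, RAD51AP1, EXO1 and RUVBL1 lie at lower right, FANCD2 at lower left, and FANCI, BARD1, BLM and ATM left of 0 and above it. Points were scaled within each line, and the test of the difference over the libraries of both lines together.

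Across the 40 members the day 6 changes of the lines had Pearson r = 0.02 as deposited and -0.03 after scaling. The points share libraries, so this is a description, and over 9688 genes r was 0.01 and -0.01.

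**Figure D4:**
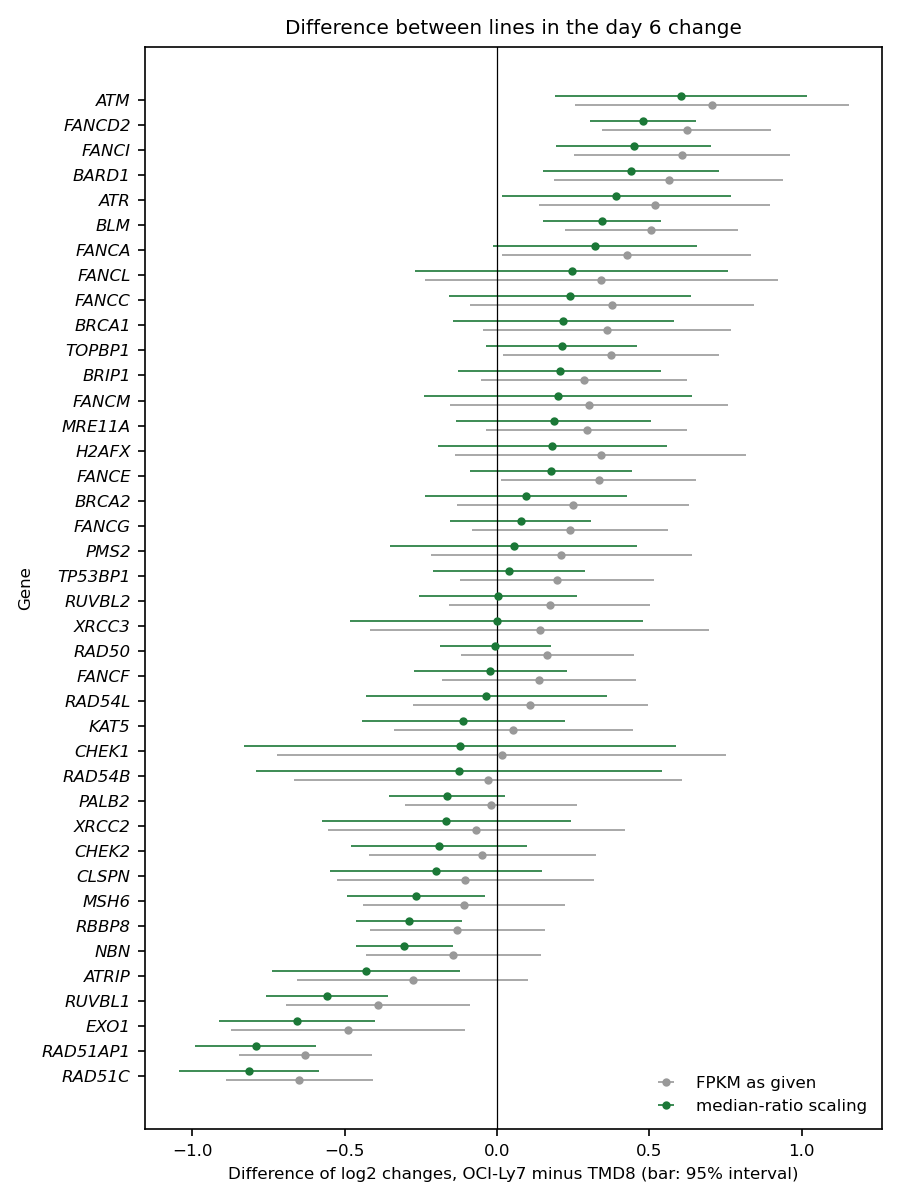
Difference of the day 6 changes, OCI-Ly7 minus TMD8, for 40 members ordered by the scaled value, with 95% intervals; grey is FPKM as deposited and green after median-ratio scaling. Intervals at both ends lie clear of 0, and those of XRCC3, RAD50 and RUVBL2 span it.

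Other repair and cell cycle genes were counted from 9 lists written with earlier results of these data known. In TMD8 on day 6 as deposited, limma called 14 of 29 other recombination and Fanconi genes lower, 4 of 5 other mismatch repair genes, 12 of 15 end joining genes, 7 of 15 other TIP60 complex genes, 12 of 13 nucleotide excision genes and 7 of 14 base excision genes, with 0 higher in each, where 51.7% of all genes were lower. Other checkpoint genes gave 8 lower and 1 higher of 16. After scaling the same lists gave 3 higher and 3 lower, 0 and 0, 1 and 3, 2 and 1, 1 and 2, 2 and 0, and for checkpoint genes 4 and 1, where 15.4% of all genes were higher and 13.5% lower. SWI5, a recombination mediator, changed by -1.06 as deposited and -0.75 scaled, and ERCC5, an excision nuclease, by -1.03 and -0.69. In OCI-Ly7 on day 6 as deposited the lists gave 1 higher and 4 lower of 30 other recombination genes, 0 and 1 of 5 mismatch repair, 0 and 2 of 16 end joining, 0 and 1 of 16 checkpoint, 0 and 3 of 15 TIP60, 0 and 2 of 12 nucleotide excision and 0 and 2 of 15 base excision, where 1.98% of all genes were higher and 9.39% lower. The end joining genes lower there were XRCC6 at -0.77 and XRCC5 at -0.58, the pair that binds broken ends. Among the other recombination genes RAD52, which anneals strands, was higher at 0.55. The median change of these lists on day 6 as deposited lay between -0.43 (nucleotide excision) and -0.21 (checkpoint) in TMD8, beside -0.30 for the members and -0.31 for all genes. In OCI-Ly7 it lay between -0.25 (nucleotide excision) and 0.16 (end joining), beside -0.13 for the members and -0.13 for all genes.

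S phase and mitotic genes were counted the same way. In TMD8 on day 6, 5 of 18 S phase genes were lower and 2 higher as deposited. After scaling 10 were higher and 0 lower. Of all genes 51.7% were lower and 3.89% higher as deposited, and 13.5% lower and 15.4% higher after scaling. PCNA, the replication clamp, rose by 0.37 as deposited and 0.73 scaled. Of 17 mitotic genes 16 were lower as deposited and 5 after scaling, with TOP2A, the topoisomerase of chromosome condensation, at -1.25 and -0.89. In OCI-Ly7 5 of 18 S phase genes were lower as deposited and 6 after scaling, with RRM2, the ribonucleotide reductase subunit, at -0.77. Of 17 mitotic genes there 3 were lower on each scale. Of all genes in that line 9.39% were lower as deposited and 8.05% after scaling. The median change on day 6 as deposited was -0.10 for S phase and -0.60 for mitotic genes in TMD8, and -0.36 and -0.29 in OCI-Ly7. The part of the cell cycle in the members' changes was not tested.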

How the data were processed

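Per the labels' protocols, RNeasy Plus mini kits gave the RNA and an Illumina TruSeq RNA kit the libraries. The submitters' processing notes name HISAT, StringTie and hg19; versions are not given in the sources used here. FPKM values were deposited by the authors, 1 table per line with 6 libraries in each. Absolute depth is unknown, so no counting interval is given.

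Changes of log2(FPKM + 1) were tested with limma 3.58.1 (R 4.3.3) and a mean-dependent trend. Genes whose FPKM averaged 1 or more in a line were kept: 10456 in TMD8, 11016 in OCI-Ly7, and 9688 in the fit of both lines. The pseudocount of 1 understates the change of low genes. The days of a line shared 1 estimate of the spread (3 residual degrees of freedom, 6 for both lines). Benjamini and Hochberg adjustment ran over all genes tested, and the threshold was 0.05. Median-ratio scaling divided a library by the median, over genes, of the ratio to the gene's geometric mean. That mean was taken within a line, except in the fit of both lines, where it was taken over all libraries of both. The tests were checked on simulated data. Alternatives were scaling to an equal sum, a pseudocount of 0.1, no filter, a mean of at least 5, no trend, a replicate block, fitting only the 2 days compared, and dropping each library in turn. Scaling together with leaving out a library was added after seeing the data. The remaining library of a group was then assumed to vary like the other groups.

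The 41 members and the 9 neighbouring lists (146 genes) were chosen with earlier results of these data known. Members past the threshold on either scale were named, as were BRCA1, BRCA2, PALB2, ATM, ATR, CHEK1, CHEK2, RUVBL1, RUVBL2, KAT5, TP53BP1 and PRMT5; other members were named to complete a role. Of each list up to 2 genes a direction and line were eligible, past the threshold on both scales, and not every one is printed. Promoters are from RefSeq on GRCh38.p14, and overlaps between genes from GENCODE v29: 27 of the 41 members share exonic bases with another gene. Neither is on hg19, so no position of the deposited values is given. Some genes of the lists enter the counts and are not reported by name here.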

Additional observations from a re-analysis of the deposited data

Results flagged for a closer look

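For 7 members the day 6 change differed between the lines by the test of the difference itself (limma, FPKM as deposited, OCI-Ly7 minus TMD8), out of 40, where 24.7% of all 9688 genes differed. FANCD2 differed by 0.62 and FANCI by 0.61, both lower in both TMD8 day 6 libraries than in both day 0 libraries. BLM differed by 0.51, BARD1 by 0.56 and ATM by 0.71, with the same order of libraries in TMD8. RAD51C differed by -0.65 and RAD51AP1 by -0.63: both OCI-Ly7 day 6 libraries were below both day 0 libraries, and both TMD8 day 6 libraries were above. The calls of BARD1 and ATM were lost in 8 and 6 of the 12 fits without 1 library. Those of BLM and FANCI were each lost in some of these fits, with differences from 0.43 to 0.58 and from 0.49 to 0.725.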

How the results depend on the processing

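Counts of members past the threshold depended on scaling and on single libraries, and for each change below the cause was not tested. Shares of all genes called are given only for the deposited and median-ratio fits of all libraries. For the other settings a change over all genes was not set apart. For TMD8 day 3 against day 0 the count of 21 came to 0 after median-ratio scaling, with equal sums, with no filter and with a replicate block, and to between 0 and 26 without 1 library. For TMD8 day 6 against day 0 the count of 22 came to 7 after median-ratio scaling, 11 with equal sums and 9 with no filter, and to between 5 and 22 without 1 library (1 to 7 with scaling). For TMD8 day 6 against day 3 the count of 2 came to 6 after median-ratio scaling, 1 with equal sums, 0 with no filter, 1 with no trend, 0 with a replicate block, 0 from the 2 days alone and 0 without any 1 library (0 to 3 with scaling, where the full count was 6). For OCI-Ly7 day 6 against day 0 the count of 3 came to 5 after median-ratio scaling, 0 with no filter and 6 at a mean of at least 5, and to between 0 and 4 without 1 library (0 with scaling). For OCI-Ly7 day 6 against day 3 the count of 0 came to 1 after scaling (0 without any 1 library). For the difference between lines the count of 7 came to 12 after scaling and 4 with no filter, and to between 3 and 8 without 1 library (6 to 12 with scaling). At OCI-Ly7 day 3 the count stayed 0 under every alternative.

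Median-ratio scaling turned the sign of these TMD8 day 3 changes: RAD51AP1 0.0526, RAD50 0.0252, RUVBL1 0.0599, CHEK1 0.18 (0.097 with equal sums) and CHEK2 0.16 (0.073). At TMD8 day 6 it turned RBBP8 to 0.0708, RAD50 to 0.0007, NBN to 0.0264, FANCG to 0.0996, RUVBL1 to 0.17, PALB2 to 0.16, CHEK2 to 0.13 and PRMT5 to 0.0962. At OCI-Ly7 day 3 it turned PALB2 to 0.048, ATM to 0.10 and ATR to 0.11 (0.0508, 0.10 and 0.12 with equal sums), and at OCI-Ly7 day 6 BRCA1 to 0.0615 (0.0174). Leaving out 1 library turned the sign of small changes, none past the threshold: in TMD8, CHEK1 from -0.36 to 0.22 at day 3, and at day 6 EXO1 from -0.0389 to 0.18, ATRIP from -0.0537 to 0.18 and CHEK1 from -0.18 to 0.40. In OCI-Ly7 at day 3 BRCA2 ran from -0.0645 to 0.0649, PALB2 from -0.16 to 0.0278, ATM from -0.0914 to 0.079, ATR from -0.0455 to 0.0384 and CHEK1 from -0.14 to 0.56. At day 6 ATM ran from -0.0014 to 0.23, ATR from -0.0081 to 0.23 and CHEK1 from -0.22 to 0.47.

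The replicate block took 16 in place of 22 members at TMD8 day 6, 2 in place of 3 at OCI-Ly7 day 6 and 6 in place of 7 for the difference. Libraries of the same number correlated in their deviations from the group means between -0.15 and 0.13, so the numbers were not taken to pair them. Depth is unknown, and genes near 0 in the shallower treated libraries rest on fewer fragments.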

Other observations

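In OCI-Ly7 on day 6, 2 of 15 base excision and 2 of 12 nucleotide excision genes were called lower on each scale (13.3% and 16.7%, against 9.39% of all genes as deposited and 8.05% after scaling). TDG, the glycosylase that removes mispaired thymine, changed by -0.76 as deposited and -0.62 after scaling. APEX1, the nuclease that cuts at abasic sites, changed by -0.75 and -0.60. RAD23B, which stabilises the damage sensor XPC, changed by -0.74 and -0.59, and DDB1, a damage-binding subunit, by -0.59 and -0.44. After scaling the OCI-Ly7 lists gave 1 higher and 2 lower of 30 other recombination genes and 0 and 1 of 5 mismatch repair genes. End joining gave 1 and 2 of 16, checkpoint 0 and 1 of 16 and TIP60 0 and 1 of 15. Nucleotide excision gave 0 and 2 of 12 and base excision 1 and 2 of 15. Of all genes 6.71% were higher and 8.05% lower on that scale.

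In TMD8 CCNE2, the cyclin of S phase entry, changed by 0.38 as deposited and 0.66 after scaling, and in OCI-Ly7 by -0.73 and -0.59. ERCC2, a helicase of excision repair, changed in TMD8 by -0.88 and -0.54, and XRCC1, a scaffold of strand break repair, by -0.70 and -0.37.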
